A study of Homo sapiens with 8 samples.

Results

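The beta-globin cluster on chromosome 11 and its locus control region were examined in ATAC-seq peak lists of HUDEP-2 cells. A peak was taken as belonging to the cluster when its summit lay at chr11:5220000-5330000 of hg19, a window of 110 kb that holds HBB, HBD, HBG1, HBG2 and HBE1. The window held 47 of the 126449 peaks in 4 libraries, and these merged into 15 of 43654 regions when peaks that shared at least 1 bp were joined. HUDEP-2 is an established human erythroid progenitor line, and ATAC-seq counts DNA fragments released where the transposase Tn5 can cut open chromatin. All cells analysed were HUDEP2 with the genotype sgControl, the scrambled-guide arm of a KRAB-dCas9 interference design delivered by lentivirus, grown with dexamethasone, SCF, EPO and doxycycline. In bulk libraries such as these, a site open in fewer cells and a site less open in each cell cannot be told apart. The cells were starved for 5 h and then received 50 ng/ml stem cell factor (SCF), the ligand of the Kit receptor, or PBS for 1 h, with 2 libraries of 50000 cells per treatment. The 4 sgEGR1 samples were not analysed here.

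The cluster encodes the beta-type chains of haemoglobin in the order in which they are used in life: HBE1 in the embryo, HBG1 and HBG2 in the fetus, and HBD and HBB in the adult. The locus control region is a row of DNase hypersensitive sites upstream of HBE1, named HS1 to HS5, that contacts the active globin promoter and drives its transcription in red cell precursors. HS2 is the classical enhancer of the row, bound by the erythroid factor NF-E2 at a tandem AP-1-type sequence, and HS3 also binds GATA1 and KLF1. 3'HS1 marks the opposite border of the cluster.

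Sequences at several of these elements were read from GRCh37, the assembly that corresponds to hg19. HS2, HS3 and HS4 of the locus control region are shown as 201 bases around the summit, on the plus strand, because they carry the results on the treatment that follow. The summit of a site was that of its peak with the highest fold enrichment rank in any library. Summits of the libraries spread over 48 bp at HS2, 85 bp at HS3 and 259 bp at HS4. HS2 was at chr11:5301886-5302086, HS3 at chr11:5305944-5306144 and HS4 at chr11:5309575-5309775. These windows lay in an intron of the readthrough gene ENSG00000239920, and also in introns of long alternative transcripts of HBE1 and HBG2. Capitals mark matches, on either strand, to short words that known factors prefer. The GATA word, read by GATA1, was limited to AGATAA or TGATAA. Near variants, such as TGATAG in HS3 and AGATAG in HS2, were not searched and stay in lower case. The AP-1 word was TGANTCA, where N is any base, and the NF-E2 word was the AP-1 word with TGC before it. The word of KLF1 and its relatives, the CACCC box, was CCNCNCCC, and that of the EGR factors was GCGTGGG. The pattern CCNCNCCC also fits some stretches without CACCC and misses others that hold it. The repressor BCL11A was searched by TGACCA. The CCAAT box, the cAMP response element and a CTCF core word were searched as well. The NF-E2 word contains the AP-1 word.
HS2: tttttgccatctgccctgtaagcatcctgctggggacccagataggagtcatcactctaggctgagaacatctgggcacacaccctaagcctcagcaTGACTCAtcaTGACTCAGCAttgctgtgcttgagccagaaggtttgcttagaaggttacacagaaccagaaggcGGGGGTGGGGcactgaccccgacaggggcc
HS3: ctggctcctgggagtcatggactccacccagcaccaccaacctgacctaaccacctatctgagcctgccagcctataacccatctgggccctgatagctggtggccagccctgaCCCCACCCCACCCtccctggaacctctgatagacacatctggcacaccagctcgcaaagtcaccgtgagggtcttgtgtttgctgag
HS4: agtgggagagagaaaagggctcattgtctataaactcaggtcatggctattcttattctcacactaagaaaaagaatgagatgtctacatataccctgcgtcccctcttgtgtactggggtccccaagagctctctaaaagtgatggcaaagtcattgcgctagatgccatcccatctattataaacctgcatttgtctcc

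HS2 was the only 1 of the 15 sites with an AP-1 or an NF-E2 word within 100 bp of its summit. Its 2 AP-1 words began 3 bp before and 7 bp after the summit, and the second was also an NF-E2 word. The AP-1 word was found near 8.43% of all 43569 regions searched and the NF-E2 word near 0.794%. CACCC words stood near sites that included HS2, HS3 and the site 2 kb downstream of the HBB start, against 38.2% of all regions. The match at that downstream site was GGGGGAGG, which fits the searched pattern but holds no CACCC on either strand. GATA words stood near sites that included HS5, the HBD start, the site 28 kb downstream of HBE1 and both sites 28 and 34 kb upstream of HBE1, against 25.4% of all regions. The capitalised words were absent from the HS4 window, which was centred on the summit of PBS replicate 1. The summit of PBS replicate 2, at chr11:5309416, lay outside that window, and the sequence around it was not searched. Neither the CTCF nor the cAMP response element word was found near any of the 15 sites, against 9.64% and 0.682% of all regions. The E-box word CANNTG, which was not capitalised, stood near 11 of the 15 sites and 61.2% of all regions. A word is a description of the letters and not a measured binding site.

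The promoters of the member genes are shown as the 150 bases before the start of the canonical transcript, on the strand of transcription, because the genes differed in whether a peak was called there. The HBB promoter was at chr11:5248302-5248451, HBD at chr11:5255714-5255863, HBG1 at chr11:5271088-5271237 and HBE1 at chr11:5291176-5291325, all on the minus strand. HBG2, at chr11:5276012-5276161, was identical to HBG1 over these 150 bases, whereas HBB and HBD shared 60 of 150 positions without gaps.
HBB promoter: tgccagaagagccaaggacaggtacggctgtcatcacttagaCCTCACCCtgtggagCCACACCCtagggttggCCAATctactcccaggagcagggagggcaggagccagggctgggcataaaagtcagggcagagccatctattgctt
HBD promoter: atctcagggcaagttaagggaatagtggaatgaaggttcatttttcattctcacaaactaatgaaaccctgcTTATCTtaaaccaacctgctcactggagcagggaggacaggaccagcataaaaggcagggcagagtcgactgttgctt
HBG1 promoter: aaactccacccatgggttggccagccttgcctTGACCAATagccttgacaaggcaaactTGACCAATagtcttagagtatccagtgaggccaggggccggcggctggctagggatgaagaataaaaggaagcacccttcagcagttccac
HBE1 promoter: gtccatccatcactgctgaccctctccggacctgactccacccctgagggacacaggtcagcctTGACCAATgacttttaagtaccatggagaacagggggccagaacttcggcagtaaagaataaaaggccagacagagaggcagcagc

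In the HBB promoter the CACCC words began at 108 and 93 bases and the CCAAT word at 76 bases before the start. Each fetal promoter held 2 joined BCL11A and CCAAT words, whose BCL11A parts began at 118 and 91 bases before the start, and the HBE1 promoter held 1. BCL11A silences the fetal genes in adult cells. The BCL11A word was found in 4.56% of 19856 protein-coding promoters, the CCAAT word in 26.4% and the CACCC word in 58.7%. CTCCACCC in the HBG1 and HBE1 promoters holds CACCC but is missed by the searched pattern, so it stays in lower case. The HBD promoter lacked the CACCC, BCL11A and CCAAT words and held 1 GATA word, which was found in 5.57% of promoters.

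The lists held 30240 and 33616 peaks with PBS and 29269 and 33324 with SCF. Read totals are unknown, but the deposited fold enrichment and p-value of a peak together give the whole number of fragments over its summit (the summit pileup) and the local background around it. The lowest local background in a list was taken as its genome-wide background. Relative to the first PBS library, this put the depth of the other PBS library at 1.43 and of the SCF libraries at 0.902 and 0.846. Both PBS libraries were thus deeper than both SCF libraries, and the part of depth in whether a site was called was not tested. The weakest listed peaks held 5 to 7 fragments, so a missing peak means only that the threshold was not passed at that depth. Among start sites of cell type markers, 11 of 13 erythroid genes were called in all 4 libraries, and HBA1 and ALAS2 in 1 each. Of other lineages, 1 of 4 megakaryocyte genes (ITGA2B), 1 of 5 myeloid genes (CD14) and 0 of 5 lymphoid genes were called in all 4, and the remaining markers were called in none. The share of all protein-coding starts called in all 4 libraries was not computed. Both ITGA2B and CD14 had a higher fold enrichment with SCF, by 0.56 and 0.47 on the log2 scale, with unadjusted p-values of 0.0224 and 0.0497 and adjusted p-values of 0.678 and 0.725 (limma), and the part of other cell types in the values of the cluster was not tested.

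The PBS libraries had 12 and 14 peaks in the cluster and the SCF libraries 10 and 11. The PBS libraries were higher without overlap, and they were also the deeper ones. The group means differed by -2.5 peaks (SCF minus PBS), by -1.5 without PBS replicate 2, by -3.5 without PBS replicate 1, and by -1.5 with an equal number of peaks taken from each list. Peaks covered 7001 and 8425 bp with PBS and 5888 and 7198 bp with SCF, so that the covered length overlapped between treatments. Of the 15 sites, 9 were called in all 4 libraries, compared with 51.3% of all regions. The 9 were the HBB start and a site 2 kb downstream of it, the HBD start, HS1 to HS4, and sites 28 and 34 kb upstream of HBE1.

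**Figure D1:**
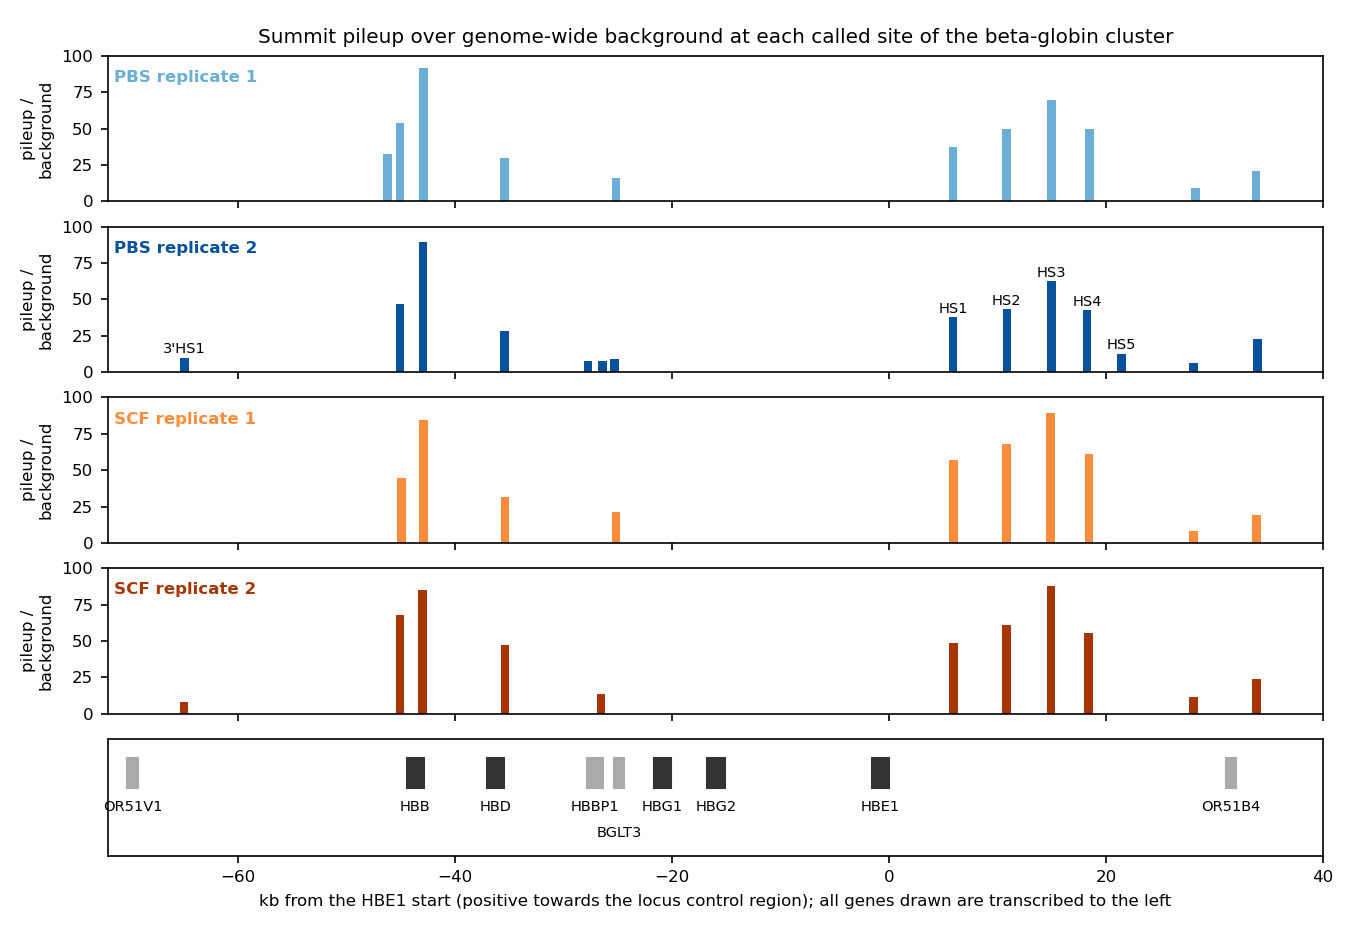
Summit pileup divided by the genome-wide background (vertical axis, a ratio) for each called site in each library, against the distance of its summit from the HBE1 start in kb. Bars are drawn 0.8 kb wide for visibility, and genes are to scale with members in black. The HBB start and HS3 carry the tallest 2 bars in every library, and no bar stands over HBG1, HBG2 or HBE1.

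No site was called in both libraries of one treatment and in neither of the other, against 1.65% of all regions for SCF and 2.37% for PBS. The remaining 6 sites were called in part of the libraries. 3'HS1 and the start of the globin pseudogene HBBP1 were called only in both replicate 2 libraries, a pattern of 3.44% of all regions. HS5 and the site 28 kb downstream of HBE1, in an exon of HBBP1, were called only in PBS replicate 2, and a site 3 kb downstream of the HBB start only in PBS replicate 1. Calls in a single library made up 26.5% of all regions. The site in BGLT3, a noncoding gene between HBBP1 and HBG1, was called in 3 libraries and missed SCF replicate 2.

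HBB, the adult beta chain gene, had its summit at the first coding exon, 0.084 kb inside the start. Its start site held 96 and 134 fragments with PBS and 80 and 75 with SCF. Divided by the genome-wide background these were 91.8 and 89.3 with PBS and 84.8 and 84.7 with SCF, so both SCF libraries were lower by a small margin. Among all peaks of a library this placed HBB at percentile 85.9 to 90.9 by pileup, where 100 is the highest. By fold enrichment, which divides the pileup by the local background, the same site ranked 49.3 and 59.3 with PBS and 49.8 and 43.2 with SCF, and the treatments overlapped. The local background at HBB was 10.8 to 12.8 times the genome-wide one. The site 2 kb downstream, which reaches over the 3' end of HBB and has its summit in an exon of ENSG00000285498, had nearly the same local background, at 10.8 to 12.8 times the genome-wide one.

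That downstream site held 56 and 70 fragments with PBS and 42 and 60 with SCF, with overlap. It ranked 68.4 to 82.2 by pileup but 6.25 to 27.4 by fold enrichment. Its peaks covered 950 and 1404 bp with PBS and 1256 and 1313 bp with SCF, where 950 bp is the sum of 2 separate peaks, and it was the widest site of the cluster in the other 3 libraries.

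HBD, the minor adult gene, showed the opposite balance. Its start held 31 and 42 fragments with PBS and 30 and 42 with SCF, fewer than HBB in every library. Its local background was 2.34 to 3.24 times the genome-wide one, and its fold enrichment rank was 64.1 and 71.0 with PBS and 63.8 and 80.6 with SCF. SCF replicate 2 was the highest and SCF replicate 1 the lowest of the 4 libraries.

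No library had a peak with its summit within 1 kb of the start of HBG1, HBG2 or HBE1. The nearest summits were 5.08, 10 and 5.89 kb away. The stretch without any peak ran from chr11:5266411-5296784, or 30.4 kb, and holds all 3 genes. For the fetal genes this has a limit from alignment: 61.9% of the 75-base stretches within 500 bp of either start have a second exact copy in the window, and a single read of that length cannot be placed there. HBE1, HBB and HBD starts and all 15 summits had 0% such stretches.

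**Figure D2:**
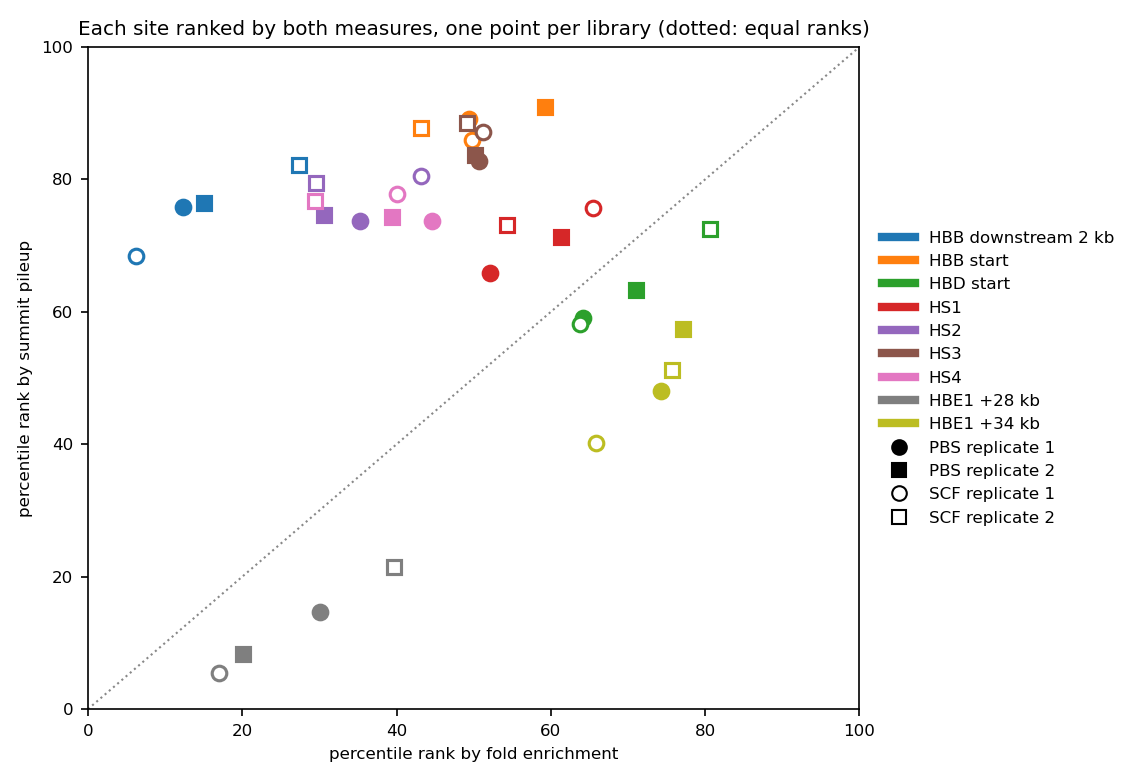
Percentile rank by summit pileup (vertical) against percentile rank by fold enrichment (horizontal) for the 9 sites called in all libraries, 1 point per library, with filled points for PBS and open points for SCF. HBB start, HBB downstream 2 kb and HS1 to HS4 lie above the line of equal ranks in every library, and the 2 sites farther upstream lie below it.

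HS1 to HS4 of the locus control region were each called in all 4 libraries. HS3 held 73 and 94 fragments with PBS and 84 and 78 with SCF. HS2 held 52 and 65 with PBS and 64 and 54 with SCF. HS4 held 52 and 64 with PBS and 58 and 49 with SCF, and HS1 held 39 and 57 with PBS and 54 and 43 with SCF. As raw fragments each element overlapped between treatments. By pileup HS3 ranked highest of the row, at 82.7 to 88.6, and HS1 to HS4 together ran from 65.8 to 88.6.

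By fold enrichment the row had another order. HS1 ranked 52.1 and 61.4 with PBS and 65.5 and 54.3 with SCF. HS3 ranked 50.7 and 50.2 with PBS and 51.2 and 49.2 with SCF, the narrowest range among the 9 sites. HS4 ranked 44.6 and 39.4 with PBS and 40.1 and 29.4 with SCF, and HS2 ranked 35.2 and 30.6 with PBS and 43.2 and 29.6 with SCF. HS1 was above HS3, and HS3 above HS4, in each library, while HS4 was above HS2 in both PBS libraries and below it in both SCF libraries, in SCF replicate 2 by a narrow margin. This exchange was noticed in the values and was not tested. The ranks of each of the 4 overlapped between treatments.

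HS5, a CTCF-bound border element in many cell types, ranked 2.78 in its only library with 19 fragments (95% exact Poisson interval 11.4 to 29.7, counting error only). 3'HS1 held 15 fragments in PBS replicate 2 and 7 in SCF replicate 2, at ranks of 47.5 and 15.9. Its local background was at the genome-wide level in both, unlike that of HS5, which was 3.55 times that level.

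Farther upstream, the site 34 kb from HBE1 combined few fragments with a high rank. It held 22 and 34 fragments with PBS and 18 and 21 with SCF, and ranked 74.2 and 77.2 with PBS and 65.8 and 75.7 with SCF. In an alternative annotation it lies in an exon of OR51B5, an olfactory receptor gene. The site 28 kb upstream, the only one with an EGR word (3.80% of all regions), held 8 to 10 fragments and ranked 30.0 and 20.1 with PBS and 16.9 and 39.7 with SCF. Its EGR word began 78 bp before the summit of SCF replicate 2, and the summits of the libraries at this site spread over 218 bp. Neither site separated the treatments by rank.

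**Figure D3:**
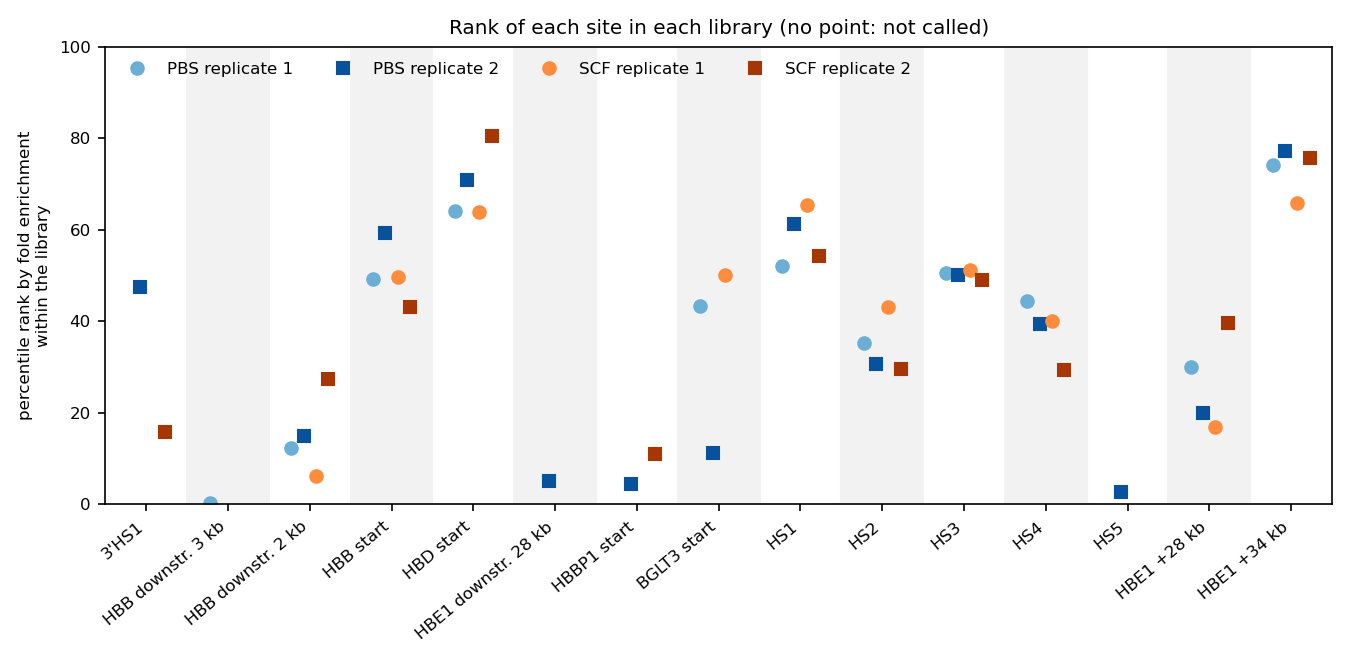
Percentile rank by fold enrichment within the library (vertical, 0 to 100) for each of the 15 sites in each of the 4 libraries, with a missing point where no peak was called. Blue and orange points mix at every site called in all 4 libraries, from 6.25 at the site 2 kb downstream of HBB to 80.6 at the HBD start.

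The comparison of SCF with PBS asked whether 1 h of Kit activation changed accessibility at these sites. Ranks did not separate the treatments at any of the 9 sites called in all 4 libraries. Over all 22398 such regions, both SCF ranks were above both PBS ranks in 16% and below them in 19.3%. A gain or loss of at least 10 points in each SCF against each PBS library was seen at 0 of the 9 sites, against 2.55% and 3.04% of all regions. The mean rank over the 9 sites was 46.5 with PBS and 46.2 with SCF.

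On log2 fold enrichment, limma fitted over all 22398 regions and centred on each library's median gave differences between -0.14 at the HBB start and 0.12 at the HBD start. Their standard errors were 0.15 to 0.24 and their adjusted p-values 0.949 to 0.992 (limma, 2 libraries per treatment). The 95% intervals of the 9 sites reached no farther than 0.61 from 0 in either direction. At an unadjusted p under 0.05 there were 0 of 9 cluster sites and 6.85% of all regions (3.51% higher with SCF), and 0% of all regions passed an adjusted p of 0.05. HS2, with its tandem AP-1 words, differed by 0.10 (95% interval -0.40 to 0.61). The 9 sites had a median of 0.08, against 0.00 over all regions.

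Widths gave a different count. Both SCF peaks were narrower than both PBS peaks at 3 of the 9 sites, while 27.2% of all regions did the same, and both were wider at 0 of 9 sites, against 8.79%. The HBB start measured 784 and 728 bp with PBS and 660 and 638 bp with SCF. HS4 measured 733 and 687 bp with PBS and 665 and 548 bp with SCF. The site 28 kb upstream measured 528 and 761 bp with PBS and 442 and 416 bp with SCF. The share of 3 in 9 stood near that background, and the median width of all peaks was itself 597 and 602 bp with PBS and 581 and 548 bp with SCF.

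The fold enrichment holds a numerator and a denominator, which were therefore compared apart, a step chosen after the data were seen. Divided by the genome-wide background, the HS3 pileup was 69.8 and 62.7 with PBS and 89.0 and 88.1 with SCF. For HS2 it was 49.7 and 43.3 with PBS and 67.8 and 61.0 with SCF. For HS1 it was 37.3 and 38.0 with PBS and 57.2 and 48.6 with SCF, and for HS4 49.7 and 42.7 with PBS and 61.5 and 55.4 with SCF. On this scale both SCF libraries were higher at each of the 4 elements. The median over all regions moved the same way, from 33.5 and 31.3 with PBS to 35.0 and 37.3 with SCF. The share of all regions with both SCF libraries higher was not counted on this scale. In a limma fit on it, 3 of the 4 elements and 11.1% of all regions were higher with SCF at an unadjusted p under 0.05.

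**Figure D4:**
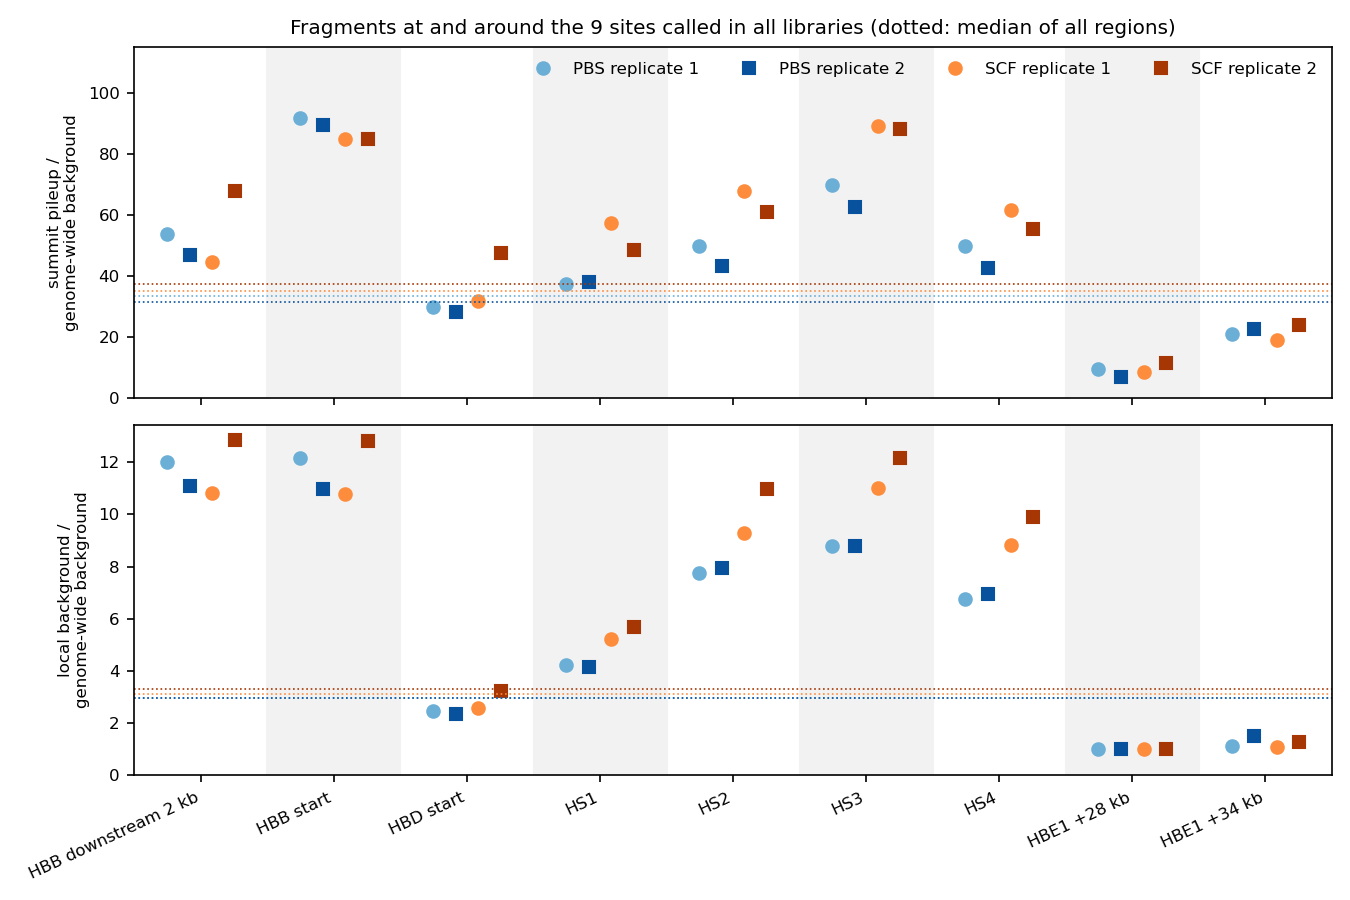
Summit pileup (upper panel) and local background (lower panel), each divided by the library's genome-wide background, for the 9 sites called in all libraries, with dotted lines at the median of all regions called in all 4 libraries. At HS1 to HS4 both orange points lie above both blue points in both panels, and at the HBB start they lie below in the upper panel and mix in the lower one.

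Relative to each library's median, HS1, HS2, HS3 and the HBD start stayed higher in both SCF libraries and the HBB start lower. That was 4 of 9 sites up, against 18.5% of all regions, and 1 of 9 down, against 18.9%. In the limma fit of log2 pileup the differences were 0.33 at HS1, 0.31 at HS2, 0.26 at HS3 and 0.18 at HS4, with standard errors of 0.16 to 0.20. The HBB start differed by -0.25, with a standard error of 0.16. The smallest adjusted p in the cluster was 0.743, and 0% of all regions passed 0.05. At an unadjusted p under 0.05 there were 0 of 9 sites, against 7.15% of all regions. Scaled by the genome-wide background instead, which moved the median of all regions to 0.15, the pileup at HS1 to HS4 differed by 0.34 to 0.49, with adjusted p-values of 0.312 to 0.517 (limma), while 0.254% of all regions passed as higher.

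The local background around the 4 elements was compared in the same way. At HS4 it was 6.74 and 6.96 times the genome-wide background with PBS and 8.83 and 9.89 with SCF. At HS3 it was 8.81 and 8.79 with PBS and 11.02 and 12.2 with SCF. At HS2 it was 7.74 and 7.95 with PBS and 9.27 and 10.97 with SCF, and at HS1 4.25 and 4.15 with PBS and 5.22 and 5.69 with SCF. Both SCF libraries were higher at all 4, also relative to the library median, which 16.3% of all regions shared, and none of the 8 sites was lower in both, against 23.3%. At the HBB start the treatments overlapped, at 12.2 and 10.96 with PBS and 10.8 and 12.8 with SCF.

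In the limma fit of log2 local background, over the 19912 regions above the genome-wide level in all 4 libraries, the differences were 0.26 at HS1, 0.25 at HS2, 0.28 at HS3 and 0.33 at HS4. Their unadjusted p-values were 0.0279, 0.0141, 0.00403 and 0.00156, and the adjusted p-values were 0.222 to 0.482, so that none passed. Higher with SCF at an unadjusted p under 0.05 were 4 of 8 cluster sites and 3.81% of all regions, or 9.17% in either direction. An adjusted p under 0.05 was reached by 0 of 8 sites and 0.0904% of all regions. The centring decided the call: scaled by the genome-wide background instead, HS2, HS3 and HS4 passed with adjusted p-values of 0.0441, 0.0123 and 0.00932 (limma), and HS1 did not, at 0.109. Under that scaling 0.713% of all regions passed as higher and 0.0352% as lower, and the median of all regions moved from -0.03 to 0.09. Without SCF replicate 1, and with the library medians kept, HS4 also passed, with an adjusted p of 0.0366 (limma), as did 0.321% of all regions in the same direction. The elements lie 5.97, 10.8, 14.9 and 18.5 kb upstream of HBE1 and the window of the local background is not given in the sources used here, so the 4 values may share fragments and are not independent. Whether the local background includes the fragments at the summit itself is not given either. Pileup and local background of a site may therefore not be separate measures.

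**Figure D5:**
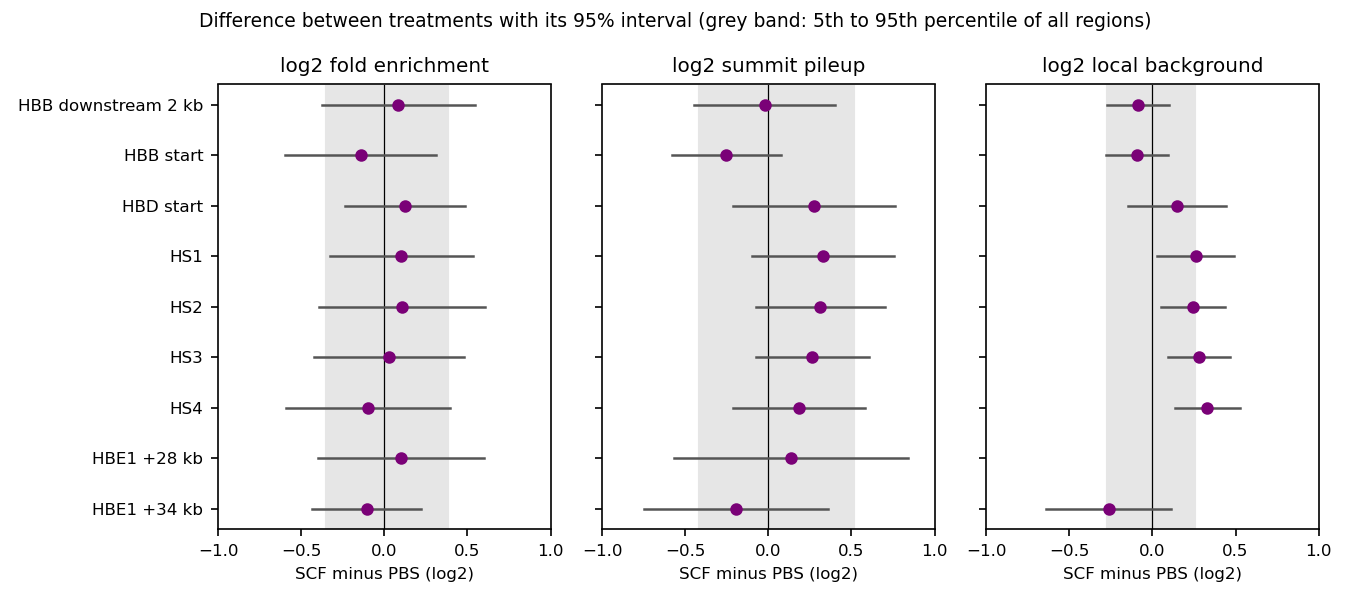
Difference between SCF and PBS (horizontal, log2) with its 95% interval from limma for the 9 sites, in panels for fold enrichment, summit pileup and local background, with the 5th to 95th percentile of all regions in grey. The points for HS1 to HS4 lie between -0.10 and 0.10 for fold enrichment and between 0.25 and 0.33 for local background. The site 28 kb upstream has no local background value above the genome-wide level.

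A ratio within a library does not depend on depth or centring. The pileup at HS3 relative to that at the HBB start was 0.760 and 0.701 with PBS and 1.05 and 1.04 with SCF. HBB was thus the higher of the pair in both PBS libraries and HS3 in both SCF libraries. For HS2 the ratio was 0.542 and 0.485 with PBS and 0.800 and 0.720 with SCF. It was 0.406 and 0.425 with PBS and 0.675 and 0.573 with SCF for HS1, and 0.542 and 0.478 with PBS and 0.725 and 0.653 with SCF for HS4. All 4 elements, and the HBD start, were higher with SCF without overlap. The 2 far upstream sites and the site downstream of HBB overlapped. The share of all regions higher without overlap on this scale was not computed. Relative to the library median, the HBB start itself was 2.74 and 2.85 with PBS and 2.42 and 2.27 with SCF. A region that stayed at its library's median would therefore also have a higher ratio with SCF, without overlap. The ratios share 1 denominator, were chosen after the values were seen, and rest on few fragments: the 95% exact binomial interval for HS3 in PBS replicate 1 was 0.553 to 1.04 and in SCF replicate 1 was 0.764 to 1.44. A two-sided exact permutation test gave p = 0.333 for HS1 to HS4 and the HBD start, the smallest p that 2 libraries against 2 allow, and 0.667 to 1 for the other 3 sites.

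The cluster was denser in peaks than its surroundings. The 110 kb on the side of HBB held 3, 3, 1 and 3 peaks and the 110 kb beyond the locus control region held 3, 2, 0 and 3, in the order PBS replicates 1 and 2, SCF replicates 1 and 2. Among tiles of 110 kb with at least 1 peak, as many peaks as in the cluster were found in 0.396%, 0.164%, 1.32% and 0.913%. The alpha-globin cluster, in a window of 140 kb, held 18, 22, 18 and 20 peaks, and 15 of its 22 regions were called in all 4 libraries. By log2 fold enrichment 0 of those 15 had an unadjusted p under 0.05, as in the beta cluster. By log2 pileup 2 of the 15 had an unadjusted p under 0.05, against 0 of 9 in the beta cluster, both higher with SCF. Over all regions, 3.81% were higher with SCF at that level. The site at chr16:163198-164047 held 75 and 108 fragments with PBS and 99 and 88 with SCF, and its local background was 4.56 and 4.69 times the genome-wide one with PBS and 6.22 and 6.29 with SCF. Its log2 pileup differed by 0.35 (limma, adjusted p = 0.685), and that at chr16:134645-135373 by 0.65 (limma, adjusted p = 0.658). At the latter, the local background was 2.35 and 2.62 times the genome-wide one with PBS and 2.80 and 3.46 with SCF. Lower with SCF was the log2 pileup at chr16:122431-123061, by -0.52 (limma, adjusted p = 0.706). Both measures were thus also higher with SCF at the 2 alpha-globin sites picked by that level, though none of these pileup differences passed an adjusted p of 0.05. They were not the only ones: at chr16:115597-116086 the log2 pileup differed by 0.49 (limma, adjusted p = 0.732). Its local background was 2.51 and 2.52 with PBS and 3.06 and 3.17 with SCF. At chr16:154768-155588 the log2 pileup differed by -0.25 (limma, adjusted p = 0.880), with a higher local background in both SCF libraries. The alpha-globin sites that met the no-overlap criterion used for HS1 to HS4 were not counted. The start of HBA2, an adult alpha chain gene with a near-identical copy in HBA1 that may share its reads, held 42 and 55 fragments with PBS and 34 and 34 with SCF, but ranked only 2.92 to 5.95 by fold enrichment on a local background 9.62 to 10.7 times the genome-wide one.

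Of 17 regulators known to act at the cluster, 14 had their start called in all 4 libraries, and their log2 fold enrichment differed by -0.20 (KDM1A) to 0.09 (RUNX1), with a median of -0.04. None had an unadjusted p under 0.05. GATA1, the erythroid GATA factor, differed by -0.05, and KLF1, an erythroid factor that prefers CACCC sequences, by -0.16. The start of BCL11A was called in 1 library, that of NFE2 in 2 and that of SOX6 in none. The share of all protein-coding starts called was not computed, so the counts of called regulators have no background beside them. The protein-coding starts most like the HBB start by Euclidean distance over the 4 ranks were CDCA8, at 2.31 rank points, PIERCE1 and MRPS2, which share 1 region, at 3.35, BAG3 at 3.61 and ANPEP at 3.71. CDCA8 ranked 48.7 and 61.4 with PBS and 49.8 and 42.8 with SCF.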

How the data were processed

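ATAC-seq peak lists of 4 sgControl libraries were analysed. Libraries were sequenced as 2 × 75 bp pairs, and bcl2fastq, Bowtie2 and SAMtools are named in the submitters' processing notes. The methods name the ENCODE ATAC-seq pipeline, while the peak caller and its settings are not given in the sources used here. The methods and labels name hg38, but the headers of the lists name hg19, and 50.6% of regions called in all 4 libraries had a summit within 1 kb of a canonical start of GENCODE release 44 on GRCh37. Peaks were called separately for each library. The deposited score column was not used. The deposited signal column is a fold enrichment, a ratio of summit pileup to local background, each plus 1. The authors also deposited −log10 p and −log10 q, with a threshold of 0.05 on q.

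A whole-number pileup that gave the deposited −log10 p to a relative error of 0.0001 was found for 100% of peaks with a −log10 p under 300. Regions were the union of peaks sharing 1 bp, with the peak of highest rank representing each, except that widths were summed over its peaks. Log2 fold enrichment was tested with limma 3.58.1 (R 4.3.3, Benjamini-Hochberg), the study's MAnorm test needing reads. In simulated data 92.5% of 200 regions changed by 1 log2 unit were recovered. Every region was given the same noise, an SD of 0.1965 taken from the PBS libraries. Smaller changes, such as those seen at the cluster sites, were not simulated. Sites were named by a gene start within 1 kb, or by distance from HBE1 (HS1 about 6 kb, HS2 11, HS3 15, HS4 18, HS5 21 to 22) or from HBB (3'HS1, about 20 kb beyond the end of the gene). Apart from 3'HS1, distances in site names run from the start of HBE1 or HBB and not from its end. Nothing in the labels says that libraries came from separate cultures, although the methods call them biological duplicates, so p-values measure the spread between these libraries. Peak names inside the lists carry other replicate numbers than the labels, which were followed. By those names PBS replicate 1 and SCF replicate 2 share a number, a pairing that was not examined. The members and lists were chosen with earlier results of these data known. The sequence of 1 site is not reported here.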

Additional observations from a re-analysis of the deposited data

How the results depend on the processing

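The calls on fold enrichment rested on 2 libraries per treatment, unknown read totals and few fragments at the sites called in part of the libraries. Counts of sites past an adjusted p of 0.05 remained at 0 of 9 under a replicate block, without centring, under quantile normalization, with the mean over the peaks of a region, and without each library; only 5 sites could be tested when regions had to have a mean rank of at least 50, again with 0. Libraries with the same number in the labels, which formed the block, share only that number. Their deviations from the group means correlated by 0.0121 for fold enrichment, 0.00304 for pileup and 0.0428 for local background. In this balanced design a replicate block cannot move the differences, so their median stayed at 0.08 by construction. It can move p-values: the adjusted p of the HS4 local background was 0.0800 with the block and 0.222 without it (limma). Of all regions, 0.372% passed for local background with the block and 0.0904% without it. With a −log10 q of at least 5 the difference in the number of peaks shrank to -0.5 and the difference in mean rank became -2.57. Ranking by summit pileup gave a difference in mean rank of 1.60. In these and the median over the sites on quantile normalized local background, at 0.21, the cause was not tested. Without single libraries, PBS-only sites ranged from 0 to 2 and rank gains from 0 to 1, and the median difference in log2 fold enrichment from -0.0492 to 0.0806. The sign of the uncalled log2 fold enrichment differences turned without 1 library at 7 of 9 sites: HBB downstream 2 kb (-0.10 to 0.26), HBD start (-0.0232 to 0.27), HS1 (-0.0705 to 0.28), HS2 (-0.0833 to 0.29), HS3 (-0.0492 to 0.10), HS4 (-0.25 to 0.0522) and the site 28 kb upstream (-0.0676 to 0.27). For log2 pileup it turned at HBB downstream 2 kb (-0.28 to 0.24 without single libraries, 0.00525 under quantile normalization, 0.14 scaled by the genome-wide background) and at 28 kb upstream (-0.0761 to 0.35). For log2 local background it turned under that scaling at HBB downstream 2 kb (0.0315) and the HBB start (0.0254). HS1 to HS4 stayed above 0 in pileup and local background in each fit that tested them (only 2 of the 4 had a mean rank of at least 50), with lowest values of 0.06 and 0.17, and without SCF replicate 1 the HS4 local background passed, with an adjusted p of 0.0366 (limma), against 0.142 or more without any other library. All alternatives on pileup and local background were added after the data were seen.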
